A study of Mus musculus with 194 samples.

Results

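The dorsal striatum (DS) was compared between mice killed 1 h after their first dose of cocaine and naive mice. The members are 8 first-run libraries of 194 in the series, 4 naive and 4 at 1 h, chosen by their labels for structure, experience, time and run. All were wild-type male C57BL/6OLAHSD mice of 6 to 7 weeks. The 1 h group received 20 mg/kg cocaine by intraperitoneal injection after days of habituation to saline injections and to the open-field box, and the naive group (labelled 0 h) was taken from the home cage with no treatment that day. No library in the comparison came from mice given saline 1 h earlier, so cocaine, the injection and the exposure to the box cannot be told apart. The tissue was dissected from slices and holds every cell type of the DS. In such bulk tissue fewer cells of a type and less RNA per cell cannot be told apart. For mice 3 and 4 of each group a second library was made from the same animals and sequenced in another run. These 4 second libraries repeat the library preparation and the sequencing but not the animals.

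The DS consists mainly of inhibitory spiny projection neurons, which carry either the dopamine receptor Drd1 or Drd2. Cocaine blocks the dopamine transporter and so raises extracellular dopamine. Stimulated neurons transcribe immediate-early genes (IEGs) within minutes from factors that are already in the cell, among them SRF with its cofactors and CREB. Many IEGs encode transcription factors of the FOS/JUN, EGR and NR4A families, and others encode proteins that act at synapses or that shut off the kinase signal.

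Each library counted unique 3' transcript molecules per gene. The first-run libraries held 1441582 to 4103181 counts, and naive mouse 2 was the shallowest. The second libraries held 2096787 to 2367436. Levels are given as CPM (a gene's share of the library's counts on a fixed scale), adjusted between libraries by the trimmed mean of M-values (TMM). Since each transcript gives 1 tag at its 3' end, CPM is not divided by length. A gene is called here when edgeR's quasi-likelihood test over the 16 acute DS libraries of the first run gave a Benjamini-Hochberg adjusted p under 0.05 and the fold was over 1.2. The projection neuron markers were present in all libraries. Drd1 stood at 248 to 321 CPM in naive mice and 272 to 315 CPM at 1 h, and Drd2 at 316 to 400.3 CPM and 356 to 380.1 CPM.

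Naive mouse 1 stood apart from the other naive mice. In this library 122 genes lay more than 4-fold above the median of the other 3 naive mice, against 1 to 4 genes in each of those and 0 to 5 genes in each 1 h mouse. More than 4-fold below the others of their group lay 54 genes in naive mouse 2, the shallowest library, 31 in naive mouse 4, 11 in naive mouse 1, 8 in naive mouse 3 and 3 to 10 in each 1 h mouse. The summed level of 9 ependymal markers was 345.9 CPM in naive mouse 1, 48.5 to 155.8 CPM in the other naive mice and 71.7 to 153.0 CPM at 1 h. The 2 choroid plexus markers that were tested summed to 200.9 CPM against 69.2 to 70.0 and 59.2 to 86.3 CPM, with 7 of the 9 choroid plexus markers below the filter on low counts. Ttr alone stood at 184.3 CPM in naive mouse 1. The 10 mural cell markers summed to 336.1 CPM against 206.8 to 221.5 and 199.7 to 253.5 CPM. The 26 projection neuron genes tested went the other way, with 21695 CPM in naive mouse 1 against 25348 to 26101 CPM in the other naive mice and 25475 to 26743 CPM at 1 h. Endothelial markers were also lowest there among the naive mice (429.6 against 468.1 to 534.1 CPM). The same held for oligodendrocyte, microglia, astrocyte, interneuron and blood cell markers. Oligodendrocyte precursor markers were highest there (334.7 against 247.1 to 295.4 CPM), and cortical neuron markers lay within the range of the others. The total counts of called genes below are therefore also given without this mouse, whereas the counts within lists include it.

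One hour after the first cocaine dose 76 genes of 12186 tested were higher (0.624%) and 5 were lower (0.041%). Of the 76, 12 rose more than 4-fold, 25 rose between 2- and 4-fold and 39 rose less than 2-fold. The largest increase was that of Egr2, at 10.2-fold. Over all genes tested the median log2 fold change was -0.0097. Without naive mouse 1, 73 genes were higher, 67 of them among the 76, and 2 were lower. In 74 of the 76 higher genes every 1 h mouse lay above every naive mouse (all but Shisa2 and Gfod1), as in 2.95% of all genes tested, and that count follows from how the 76 were selected. Among the called genes of the plot of all genes the higher outnumber the lower, and the number of lower genes rests on single naive mice, with 40 lower without naive mouse 3 and 52 without naive mouse 4. At an unadjusted p under 0.05 the directions were more even, with 534 genes higher and 586 lower.

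**Figure D1:**
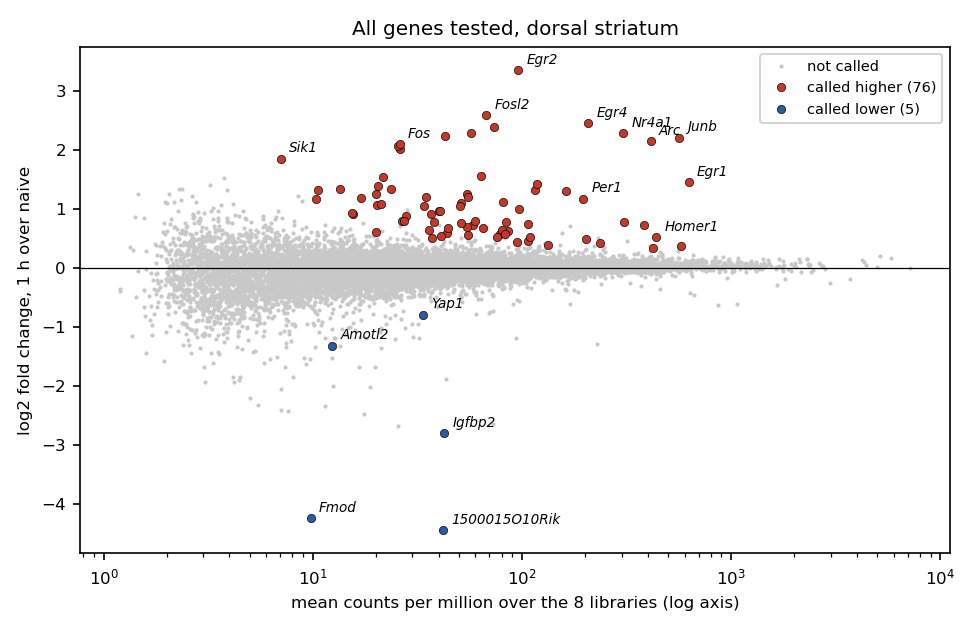
Log2 fold change of 1 h over naive (vertical axis) against mean CPM over the 8 libraries (horizontal log axis) for the 12186 genes tested; red points are the 76 genes called higher, blue points the 5 called lower and grey points all others. Egr2 is the highest point, at 3.36, and 3 of the 5 blue points lie below -2.

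The upstream sequences of 4 of the higher genes are shown because they carry elements known from IEG promoters. Windows of 250 bases before annotated starts were taken from RefSeq (build GRCm38.p6) for 58 of the 76 higher genes. They were searched on both strands for the CArG box bound by SRF, for the CRE (TGACGTCA) bound by CREB, for the AP-1 site (TGANTCA) bound by FOS/JUN dimers, and for an EGR site (GCGTGGGCG or GCGGGGGCG). Capitals mark the matches. The windows below overlap no annotated exon and were chosen after the values were seen.
Egr2, chr10:67537619-67537868, + strand, CArG box: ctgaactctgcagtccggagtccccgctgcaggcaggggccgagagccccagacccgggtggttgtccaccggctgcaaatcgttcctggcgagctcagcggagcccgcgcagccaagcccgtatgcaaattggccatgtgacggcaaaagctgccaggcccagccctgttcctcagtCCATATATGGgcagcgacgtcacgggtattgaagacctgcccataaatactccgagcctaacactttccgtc
Rnd3, chr2:51149112-51149361, - strand, CArG box: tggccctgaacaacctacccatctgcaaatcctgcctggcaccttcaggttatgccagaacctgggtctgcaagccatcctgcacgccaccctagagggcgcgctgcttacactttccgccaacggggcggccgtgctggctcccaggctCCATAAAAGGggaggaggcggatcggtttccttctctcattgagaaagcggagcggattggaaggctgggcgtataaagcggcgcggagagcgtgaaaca
Btg2, chr1:134079156-134079405, - strand, CRE: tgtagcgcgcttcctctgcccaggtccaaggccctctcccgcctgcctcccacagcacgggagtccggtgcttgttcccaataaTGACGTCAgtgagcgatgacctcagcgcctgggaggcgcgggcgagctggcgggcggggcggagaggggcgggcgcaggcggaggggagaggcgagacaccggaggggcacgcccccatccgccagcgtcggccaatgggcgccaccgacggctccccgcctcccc
Nr4a1, chr15:101266596-101266845, + strand, EGR site (read on the other strand): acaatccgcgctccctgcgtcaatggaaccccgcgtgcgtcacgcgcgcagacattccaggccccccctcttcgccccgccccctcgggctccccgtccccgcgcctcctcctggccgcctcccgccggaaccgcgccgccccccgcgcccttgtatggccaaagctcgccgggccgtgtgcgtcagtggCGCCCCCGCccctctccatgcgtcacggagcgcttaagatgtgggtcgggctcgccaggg
The CArG box of the Egr2 window begins 72 bases before the start, that of Rnd3 100 bases, the CRE of Btg2 166 bases and the EGR site of Nr4a1 60 bases before it.

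A gene was counted when any of its windows held the element. The other higher genes, Egr1 and Hbegf among them, were not searched, so these counts do not show whether they hold an element. A CRE was found in 9 of the 58 higher genes (15.5%), against 3.16% of the 9585 tested genes with a window and 1.77% of all 27025 genes with a window. Those 9 were Arl4d, Arl5b, Btg2, Celf3, Dusp1, Irf2bpl, Plk2, Ppm1d and Slc25a25. A CArG box was found in 5 (8.62%), namely Arid3b, Dusp5, Egr2, Mknk2 and Rnd3, against 1.38% of the tested genes and 1.62% of all genes with a window. An EGR site was found in 11 (19.0%), against 7.02% and 3.47%, and an AP-1 site in 3 (5.17%), against 5.22% and 7.82%. Of the 4 lower genes with a window 1 held an AP-1 site (Igfbp2) and none held the other elements. These are matches of letters in short windows and were not tested.

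Immediate-early transcription factors held the steepest increases. Of 31 genes on a list of such factors 25 passed the filter on low counts, 12 were called higher and none lower, and the median log2 fold change of the 25 was 0.48. Over all genes tested 0.624% were called higher and 0.041% lower. Both shares are the background for every list below, so a list with none lower is near its background. The summed level of the 25 was 1323 to 1627 CPM in naive mice and 3872 to 4678 CPM at 1 h. The 12 were Fos, Fosb, Fosl2, Jun, Junb, Egr1, Egr2, Egr3, Egr4, Nr4a1, Nr4a3 and Bhlhe40.

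The 4 EGR genes encode zinc finger transcription factors, and all were higher. Egr2 (chr10:67535475-67542188, + strand, GENCODE M21 on GRCm38) counted 7.11, 23.1, 22.2 and 17.98 CPM in naive mice 1 to 4 and 179.9, 147, 175 and 197 CPM in 1 h mice 1 to 4. The lowest naive value was that of mouse 1, and the lowest 1 h value exceeded the highest naive value severalfold. The increase was the steepest of all called genes (log2 fold change 3.36, SE 0.25, adjusted p = 1.27e-09), and without naive mouse 1 the log2 fold change was 3.08. Egr4 (chr6:85511121-85513589) rose from 52.8, 77.5, 71.2 and 59.1 CPM to 385, 311, 337 and 371 CPM (log2 fold change 2.46, SE 0.17, adjusted p = 7.47e-10). Egr1 was already abundant in naive mice, at 266 to 409.8 CPM, and reached 865 to 989 CPM (log2 fold change 1.45, SE 0.13). Egr3 started from a lower level, 198 to 247 CPM, and reached 358 to 411 CPM (log2 fold change 0.78, SE 0.12), so the 4 family members rose by unequal factors. Nab2, a corepressor that binds EGR proteins and is itself an EGR target, rose from 58.3 to 64.97 CPM to 101 to 117 CPM (log2 fold change 0.79, SE 0.096, adjusted p = 7.25e-06).

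The FOS and JUN families dimerise to form AP-1. Fosl2 (chr5:32135801-32157842) counted 21.7, 20.96, 18.7 and 16.3 CPM in naive mice and 133, 86.8, 122 and 119 CPM at 1 h (log2 fold change 2.59, SE 0.21, adjusted p = 6.59e-09). The naive values lay close together, and the lowest 1 h value was that of mouse 2. Fosb (chr7:19302696-19310051) rose from 26.1, 26.5, 14.1 and 14.4 CPM to 110.3, 72.3, 82.4 and 113 CPM (log2 fold change 2.29, SE 0.26, adjusted p = 2.66e-06). Fos itself (chr12:85473890-85477273) was at low levels in naive mice, with 18.97, 11.9, 4.69 and 5.18 CPM, and rose to 35.8, 34.5, 40.9 and 56.4 CPM (log2 fold change 2.10, SE 0.28, adjusted p = 4.24e-05). Its naive values spread widely, with mouse 1 highest, and without that mouse the log2 fold change was 2.72. Junb (chr8:84974484-84978718) was the most abundant of these, rising from 161, 291, 187 and 174 CPM to 833, 880.3, 845 and 1118 CPM (log2 fold change 2.21, SE 0.15, adjusted p = 7.47e-10). Jun rose less, from 20.98 to 38.96 CPM to 46.2 to 63.8 CPM (log2 fold change 0.96, SE 0.18), and Jund was not called, with a log2 fold change of 0.17 (adjusted p = 0.69).

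NR4A proteins are orphan nuclear receptors. Nr4a1 (chr15:101254269-101274795) counted 76.6, 117, 146 and 81.2 CPM in naive mice and 499.5, 452, 484 and 592 CPM at 1 h (log2 fold change 2.28, SE 0.23, adjusted p = 2.08e-07). Nr4a3 (chr4:48045153-48086447) rose from 31.5, 18.2, 19.7 and 23.98 CPM to 159.7, 96.6, 102 and 140.0 CPM (log2 fold change 2.38, SE 0.21, adjusted p = 2.17e-08), with 1 h mice 1 and 4 above mice 2 and 3. Nr4a2 did not pass the filter on low counts. Bhlhe40, a repressor that also acts in the circadian clock, rose from a range of 17.6 to 30.04 CPM in naive mice to one of 40.4 to 50.2 CPM at 1 h (log2 fold change 1.05, SE 0.18). Of the 13 listed factors that were tested and not called, Ier5, Srf and Crem had every 1 h mouse above every naive mouse. That held in 2.95% of all genes tested. The log2 fold changes of Ier5, Srf and Crem were 0.30, 0.25 and 0.35, with adjusted p-values of 0.104, 0.351 and 0.488. Npas4, a factor induced by neuronal activity, was at 39.98, 34.2, 9.37 and 14.2 CPM in naive mice and 30.9, 14.6, 25.2 and 43.4 CPM at 1 h, and the groups overlapped (log2 fold change 0.29, adjusted p = 0.865).

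**Figure D2:**
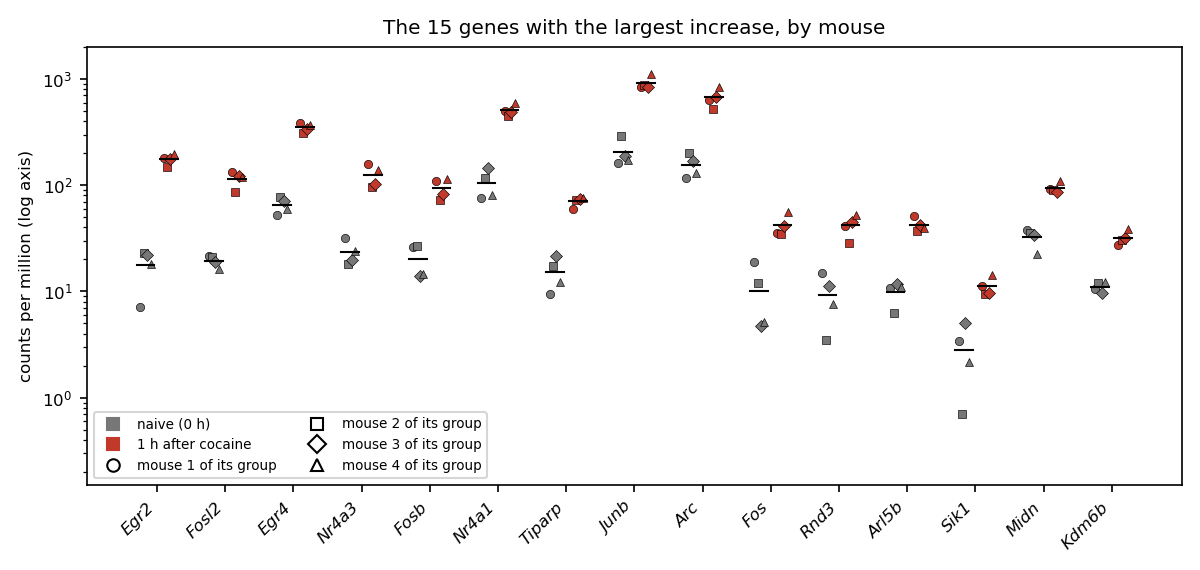
CPM (vertical log axis) of the 15 genes with the largest log2 fold change among those called higher, in each of 4 naive mice (grey) and 4 mice at 1 h (red); symbols mark the mouse within its group and bars the group mean. Within a gene no grey point reaches the red points, and Egr2 in naive mouse 1, at 7.11 CPM, lies apart from the other naive mice.

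Effectors regulated by neuronal activity came next, some of which act at synapses and others in the nucleus. Of 30 such gene symbols (1 of them, Ccn1, a second name of Cyr61) 27 were tested, 10 were called higher (Arc, Homer1, Nptx2, Plk2, Gadd45b, Arl4d, Arl5b, Tiparp, Pim3 and Sertad1) and none lower, with a median of 0.37. Arc (chr15:74669083-74672570), which acts in the trafficking of AMPA receptors at synapses, counted 118, 200.5, 169 and 129 CPM in naive mice and 632, 527, 684 and 844 CPM at 1 h (log2 fold change 2.15, SE 0.23, adjusted p = 8.56e-07). Mouse 4 was the highest at 1 h and mouse 1 the lowest among the naive mice. Tiparp (chr3:65528410-65555518), an ADP-ribosyltransferase, rose from 9.49, 17.5, 21.6 and 12.3 CPM to 59.5, 73.1, 74.7 and 75.6 CPM (log2 fold change 2.24, SE 0.18, adjusted p = 3.42e-09). Arl5b (chr2:15049395-15082456), a small GTPase of the ARF-like family, rose from 10.8, 6.29, 11.9 and 10.9 CPM to 51.6, 36.7, 42.4 and 39.6 CPM (log2 fold change 2.03, SE 0.21, adjusted p = 7.64e-07). Gadd45b rose from a range of 27.2 to 40.3 CPM in naive mice to one of 67.8 to 85.2 CPM at 1 h (log2 fold change 1.25, SE 0.14, adjusted p = 3.20e-06). The synaptic scaffold gene Homer1 rose by a smaller factor from a high level, 326 to 397 to 467 to 553 CPM (log2 fold change 0.52, SE 0.12, adjusted p = 0.0383). The deposited counts are per gene, so its short activity-induced transcript was not told apart from the long one. Plk2, a kinase of synaptic homeostasis, went from a range of 170.4 to 236 CPM in naive mice to one of 238 to 299 CPM at 1 h (log2 fold change 0.43, SE 0.087).

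Feedback inhibitors of MAP kinase and related signalling were examined next. Of 25 genes on this list 23 were tested, 6 were higher (Dusp1, Dusp5, Dusp6, Dusp14, Rgs2 and Sik1) and none lower, with a median of 0.32. The 4 DUSP genes encode dual-specificity phosphatases. Dusp14 was the most abundant, with 87.1, 82.4, 104 and 97.5 CPM in naive mice and 279, 189.6, 211 and 246 CPM at 1 h (log2 fold change 1.30, SE 0.18, adjusted p = 6.76e-05). Dusp1 rose from a range of 26.97 to 44.01 CPM in naive mice to one of 66.6 to 88.3 CPM at 1 h (log2 fold change 1.21, SE 0.15, adjusted p = 7.25e-06), Dusp6 from a range of 25.1 to 44.7 CPM in naive mice to one of 58.5 to 75.6 CPM at 1 h (log2 fold change 1.05, SE 0.16, adjusted p = 2.70e-04) and Dusp5 from a range of 5.18 to 6.87 CPM in naive mice to one of 12.3 to 17.4 CPM at 1 h (log2 fold change 1.32, SE 0.22, adjusted p = 8.37e-04). Rgs2, which shortens G protein signalling, rose from a range of 236 to 334 CPM in naive mice to one of 447 to 534 CPM at 1 h (log2 fold change 0.73, SE 0.11, adjusted p = 2.80e-04). Sik1, a kinase that restrains CREB coactivators, was scarce, with 3.39, 0.699, 4.998 and 2.18 CPM in naive mice and 11.4, 9.52, 9.73 and 14.2 CPM at 1 h (log2 fold change 1.85, SE 0.34, adjusted p = 0.00243). Spry4, an inhibitor of receptor tyrosine kinase signalling, had no overlap of the groups but was not called (log2 fold change 1.53, adjusted p = 0.0789). Every 1 h mouse lay above every naive mouse in 9 listed genes and in 2.95% of all genes tested. The reverse held in 1 listed gene, which was not called, and in 2.17% of all genes tested.

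Of 18 corepressors and regulators of RNA decay 17 were tested and 2 were higher, Nab2 and Btg2, with a median of 0.014. Btg2, which promotes removal of the poly(A) tail, depended on which mice were used. It counted 19.99, 16.1, 6.25 and 5.18 CPM in naive mice and 22.2, 26.9, 26.9 and 41.5 CPM at 1 h (log2 fold change 1.39, SE 0.29, adjusted p = 0.0116), so that naive mouse 1 lay just below 1 h mouse 1. Without naive mouse 1 its log2 fold change was 1.91 (adjusted p = 1.81e-05).

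Of 18 circadian clock genes 2 were higher, Per1 and Bhlhe40, and none lower (median -0.0093). Per1, a clock repressor that is also induced through CREB and by glucocorticoids, counted 85.7, 152, 126 and 123 CPM in naive mice and 271, 275, 262 and 274 CPM at 1 h (log2 fold change 1.18, SE 0.11, adjusted p = 3.76e-08). The 1 h values lay close together. Ciart was not called (log2 fold change 0.98, adjusted p = 0.0534), although its groups did not overlap, and it was called with DESeq2 (adjusted p = 0.028) and in the second libraries (log2 fold change 1.00, adjusted p = 0.0256). Per1 was also the only gene called among 20 tested genes that respond to glucocorticoids and stress, whose median was -0.015. Sgk1 of that list was at 103 to 215 CPM in naive mice and 192 to 225 CPM at 1 h (log2 fold change 0.71, adjusted p = 0.0733). The summed level of the list was 8114 CPM in naive mouse 1, 3908 to 4837 CPM in the other naive mice and 4081 to 4841 CPM at 1 h. Its most abundant members were the metallothioneins Mt1 and Mt2, with Mt2 at 2476, 1000.4, 814 and 842 CPM in the naive mice.

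Of 24 chaperones of the heat shock and endoplasmic reticulum systems 2 were higher, both of the DNAJ family of HSP70 cochaperones (median 0.018). Dnajb5 rose from 49.1, 53.1, 54.04 and 50.4 CPM to 114, 105, 108 and 119 CPM (log2 fold change 1.11, SE 0.14, adjusted p = 8.28e-06). Dnajb1 rose from a range of 67.1 to 90.1 CPM in naive mice to one of 122 to 160.4 CPM at 1 h (log2 fold change 0.75, SE 0.11, adjusted p = 1.32e-04).

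**Figure D3:**
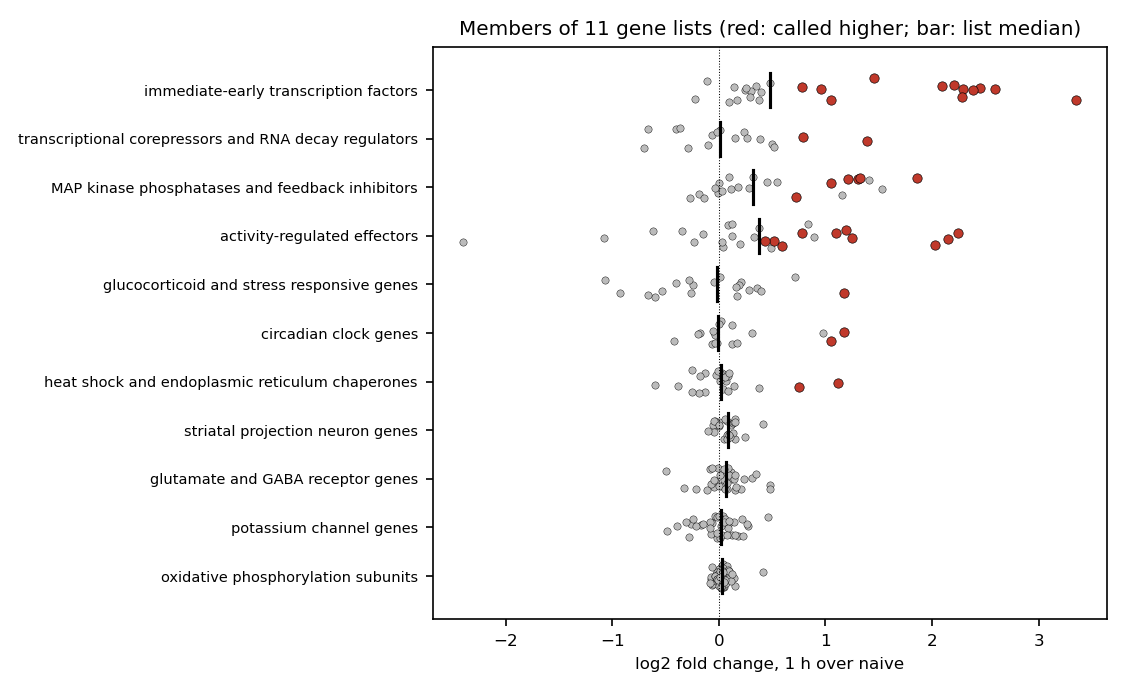
Log2 fold change of 1 h over naive (horizontal axis) for the tested members of 11 gene lists; red points were called higher, grey points were not called and bars mark the list medians. The red points lie mostly in the immediate-early, feedback and effector lists, and the last 4 lists hold none.

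The remaining higher genes lay outside these lists and are named after their values were seen. Rnd3 (chr2:51130438-51149111), a small GTPase that acts on the actin cytoskeleton, rose from 14.9, 3.49, 11.2 and 7.63 CPM to 41.7, 28.8, 44.7 and 52.3 CPM (log2 fold change 2.07, SE 0.25, adjusted p = 7.01e-06). Midn, which encodes midnolin, a protein that targets immediate-early proteins for degradation, rose from 37.6, 35.6, 34.05 and 22.6 CPM to 92.3, 89.6, 86.7 and 109 CPM (log2 fold change 1.57, SE 0.17, adjusted p = 9.39e-07). Kdm6b, a histone H3 lysine demethylase that removes a repressive mark, rose from 10.5, 11.9, 9.68 and 12.3 CPM to 27.4, 30.8, 31.8 and 38.7 CPM (log2 fold change 1.54, SE 0.20, adjusted p = 1.97e-05), and a further demethylase gene, Kdm7a, rose from a range of 54.2 to 71.2 CPM in naive mice to one of 83.3 to 96.01 CPM at 1 h (log2 fold change 0.53, SE 0.10). Slc25a25, a mitochondrial ATP-Mg/phosphate carrier, rose from a range of 58.6 to 74.03 CPM in naive mice to one of 145 to 180.4 CPM at 1 h (log2 fold change 1.33, SE 0.12). Irs2, which carries insulin signals, rose from a range of 58.7 to 74.9 CPM in naive mice to one of 116 to 144 CPM at 1 h (log2 fold change 1.00, SE 0.16).

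Other higher genes, likewise named after their values were seen, encode secreted factors, receptors and a postsynaptic protein. Hbegf, a ligand of the EGF receptor, rose from a range of 26.5 to 58.6 CPM in naive mice to one of 72.7 to 87.96 CPM at 1 h (log2 fold change 0.80, SE 0.15), and Vegfa from a range of 35.6 to 47.5 CPM in naive mice to one of 61.8 to 75.3 CPM at 1 h (log2 fold change 0.70, SE 0.13). Gpr3, a constitutively active receptor that raises cyclic AMP, rose from a range of 4.63 to 10.3 CPM in naive mice to one of 13.7 to 22.95 CPM at 1 h (log2 fold change 1.34, SE 0.26). Adora1, the adenosine A1 receptor that inhibits transmitter release, changed little in size but with little spread, from 121, 110.4, 115 and 116 CPM to 156, 141, 156 and 155 CPM (log2 fold change 0.39, SE 0.069, adjusted p = 0.00173). Baiap2, a postsynaptic regulator of actin, went from a range of 452 to 524 CPM in naive mice to one of 628 to 697 CPM at 1 h (log2 fold change 0.37, SE 0.081) and was not called without naive mouse 1 (adjusted p = 0.061). The other 8 genes that lost their call without that mouse were Shisa2, Tbc1d30, Gfod1, 6030419C18Rik, 2410131K14Rik, Spryd3, Erf and Rsrp1. All 8 stayed above 0 without it in the fit over 48 libraries described below. There their log2 fold changes ran from 0.31 (Rsrp1) to 1.06 (Shisa2), against 0.35 and 1.18 with that mouse.

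Of 26 tested genes on the list of projection neuron genes none was called in either direction (median 0.080). Of the 26, 20 were above 0, as were 5821 of all 12186 genes tested, and naive mouse 1 had the lowest sum of this list. Drd1 and Drd2 had log2 fold changes of -0.00044 (SE 0.080) and 0.00078 (SE 0.077). Without naive mouse 1 these were -0.076 and -0.072, and those of Penk and Tac1, given next, fell to 0.10 and 0.089. The neuropeptide genes were likewise not called. Penk, enkephalin of the indirect pathway, counted 3744, 3748, 4299 and 4282 CPM in naive mice and 4539, 4481, 4406 and 4242 CPM at 1 h (log2 fold change 0.14, SE 0.062, adjusted p = 0.503). Tac1, substance P of the direct pathway, counted 602, 704, 741 and 711 CPM and 758, 808, 739 and 759 CPM (log2 fold change 0.15, SE 0.077, adjusted p = 0.555), and naive mouse 1 was the lowest of all 8. Pdyn, prodynorphin, was at 95.9 to 126 and 87.3 to 123 CPM (log2 fold change -0.045, SE 0.13). None was called of 34 glutamate and GABA receptor genes (median 0.062), 38 potassium channel genes (median 0.017) or 68 subunits of oxidative phosphorylation (median 0.028), and none of the markers of the 11 other cell classes examined. Over all genes tested 0.624% were called higher and 0.041% lower, so lists of these sizes would hold few or no called genes at the background share.

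The 5 genes called lower rested mostly on naive mouse 1. The secreted proteoglycan gene Fmod counted 67.4, 4.89, 0.937 and 1.09 CPM in naive mice 1 to 4 and 0.987, 1.12, 0.572 and 1.24 CPM at 1 h (log2 fold change -4.24, SE 0.93, adjusted p = 0.0217). Igfbp2, a binding protein of insulin-like growth factors, counted 252, 24.5, 10.6 and 9.81 CPM and 10.9, 12.6, 11.2 and 8.98 CPM (log2 fold change -2.79, SE 0.65, adjusted p = 0.0368). 1500015O10Rik, also known as Ecrg4, which encodes a secreted peptide precursor known from the choroid plexus, counted 307, 6.29, 5.93 and 0.817 CPM and 5.18, 3.64, 1.72 and 4.34 CPM (log2 fold change -4.44, SE 0.98, adjusted p = 0.0217). In all 3 genes naive mouse 1 was far above every other mouse, and the rest of the groups overlapped. Without that mouse their log2 fold changes were -0.82, -0.28 and -0.044, and none was called. The ependymal, choroid plexus and mural markers given above were also highest in naive mouse 1, and their part in these decreases was not tested. Amotl2, an angiomotin that binds YAP, counted 31.5, 18.9, 10.3 and 10.6 CPM and 9.13, 3.64, 6.01 and 9.29 CPM (log2 fold change -1.31, SE 0.31, adjusted p = 0.0423). Its groups did not overlap, but without naive mouse 1 it was not called (log2 fold change -0.80, adjusted p = 0.386).

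Yap1 (chr9:7931999-8004596, - strand), the transcriptional coactivator of the Hippo pathway, was the decrease that did not rest on 1 mouse. It counted 48.4, 46.1, 39.05 and 37.1 CPM in naive mice and 22.95, 28.3, 21.5 and 25.1 CPM at 1 h (log2 fold change -0.79, SE 0.13, adjusted p = 0.00106). Every 1 h mouse lay below every naive mouse, as in 2.17% of all genes tested. Without naive mouse 1 the log2 fold change was -0.71 (SE 0.14, adjusted p = 0.00519), and Yap1 was called lower whichever of the 8 mice was left out. In the second libraries of mice 3 and 4 it stood at 31.6 and 24.3 CPM in naive mice and 22.2 and 24.3 CPM at 1 h (log2 fold change -0.26, adjusted p = 0.879), so the direction was the same, the difference smaller and not called. Other genes of the pathway, Wwtr1 and Tead1, were not called, with log2 fold changes of -0.49 and -0.56, and naive mouse 1 was the highest mouse for both. Without it their values were -0.066 and -0.026.

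Without naive mouse 1, Oprk1 was called lower along with Yap1 (0.0163% of 12299 genes tested). Oprk1 (chr1:5588466-5606131, + strand) encodes the kappa opioid receptor, the target of dynorphin. It counted 15.6, 30.04, 27.2 and 25.6 CPM in naive mice and 13.8, 16.5, 10.9 and 15.2 CPM at 1 h. Naive mouse 1 lay among the 1 h mice, and the other 3 naive mice lay above all of them. The log2 fold change was -0.78 (SE 0.21, adjusted p = 0.0959) with all mice and -0.95 (SE 0.19, adjusted p = 0.00522) without naive mouse 1. In the second libraries the levels were 46.9 and 52.7 CPM in naive mice and 32.3 and 38.4 CPM at 1 h (log2 fold change -0.49, adjusted p = 0.372). Jag1, a Notch ligand, was not called, at 5.42, 10.5, 5.62 and 8.17 CPM in naive mice and 3.70, 3.08, 2.86 and 3.72 CPM at 1 h, with no overlap of the groups (log2 fold change -1.09, adjusted p = 0.0798). The genes Oprk1 and Jag1 were chosen after their values were seen.

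**Figure D4:**
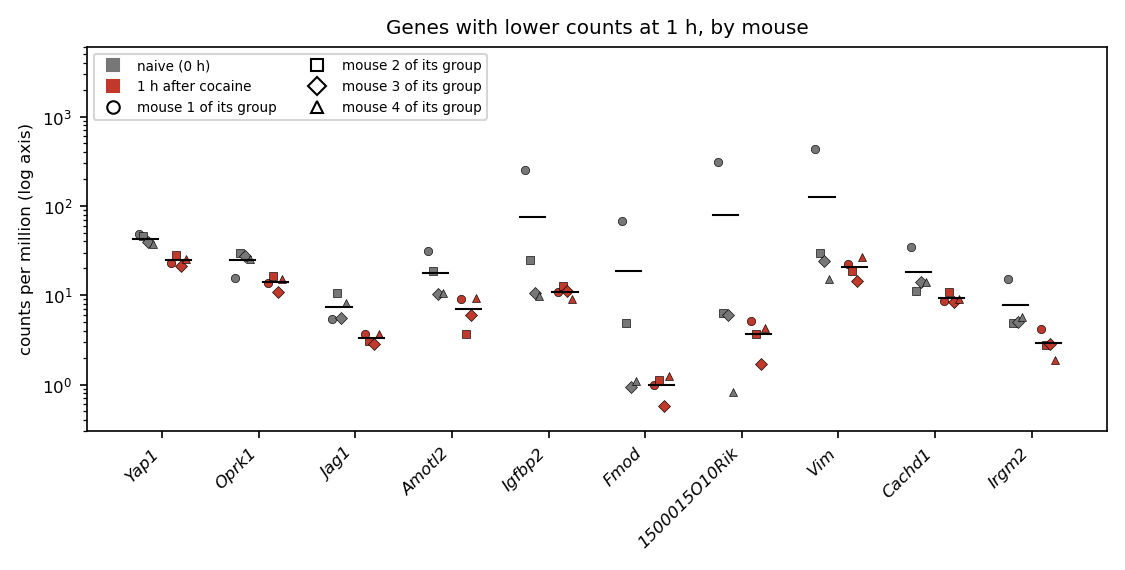
CPM (vertical log axis) of 10 genes with lower counts at 1 h, in each of 4 naive mice (grey) and 4 mice at 1 h (red); symbols mark the mouse within its group and bars the group mean. In Igfbp2, Fmod, 1500015O10Rik and Vim the grey circle of naive mouse 1 lies far above every other point. For Yap1, Jag1, Amotl2, Cachd1 and Irgm2 all red points lie below all grey points.

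The direction was then read in the second libraries of mice 3 and 4. All 76 higher genes had a log2 fold change above 0 there, as did 49.3% of the 11756 genes tested in those libraries. In 72 of the 76 both 1 h mice lay above both naive mice (17.9% of all genes tested), the exceptions being Prr7, Tlnrd1, Pde12 and Dxo. The median log2 fold change of the 76 was 0.97 in the first libraries and 0.83 in the second, and 48 were called higher there too (0.544% of genes tested). Mice 3 and 4 also took part in choosing the 76. From a fit on the 4 first-run libraries of mice 1 and 2 alone, with no other time points, 23 genes were called higher (and 2 lower, Yap1 not among them at adjusted p = 0.126), and all 23 were above 0 in the second libraries of mice 3 and 4, which are other animals. In 22 of the 23 both 1 h mice lay above both naive mice.

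The second libraries hold mice 3 and 4 only, so their log2 fold changes are not over the same mice as those of the first run. Fos stood at 12.5 and 7.97 CPM in the naive mice and 76.7 and 104 CPM at 1 h (log2 fold change 3.14), and in their first libraries the same mice stood at 4.69 and 5.18 and 40.9 and 56.4 CPM. Egr2 stood at 25.5 and 13.3 and 190.1 and 189 CPM (log2 fold change 3.29), close to its first-run value. At the other end, Tlnrd1, Pde12 and Adora1 had second-library log2 fold changes of 0.034, 0.075 and 0.10. Of the lower genes only 3 passed the filter in the second libraries, and Yap1 alone was below 0. Igfbp2 was at 7.89 and 6.20 CPM in naive mice and 8.68 and 7.25 CPM at 1 h, and Amotl2 at 11.6 and 11.95 and 12.1 and 12.4 CPM. Naive mouse 1, the highest mouse for these genes in the first run, has no second library.

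**Figure D5:**
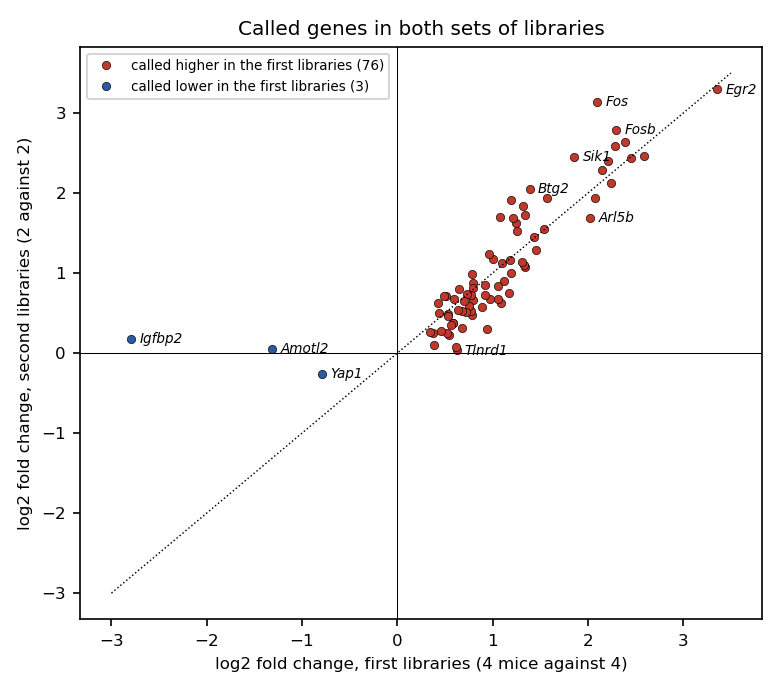
Log2 fold change of 1 h over naive in the second libraries of mice 3 and 4 (vertical axis) against that in the first libraries of all 8 mice (horizontal axis) for the 76 higher genes (red) and the 3 lower genes tested in both (blue); the dotted line marks equal values. All red points lie above 0, and Igfbp2 and Amotl2 lie near 0 in the second libraries.

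The second libraries also called 16 genes higher that were not called in the first. Among them, Npas4 had a log2 fold change of 2.19 (adjusted p = 2.32e-06), with 6.96 and 6.20 CPM in naive mice 3 and 4 and 26.5 and 33.7 CPM at 1 h. In the first run naive mice 1 and 2 had the highest naive levels of Npas4. Sgk1 had a log2 fold change of 1.05 (adjusted p = 1.70e-08), with 135 and 143 and 294 and 281 CPM, and in the first run naive mouse 2 lay among the 1 h mice. Mcl1, a survival factor of the BCL2 family, had 0.84 (adjusted p = 8.83e-04) against 0.26 in the first run. In these 3 genes the first-run value without naive mouse 1 was 0.77, 0.64 and 0.51, and Mcl1 was then called (adjusted p = 0.0132). Adamts1, a secreted protease, went against its first-run value, with a log2 fold change of 3.43 in the second libraries (adjusted p = 0.0488), which rests on 1 count in each naive mouse and 8 and 16 counts at 1 h, and -0.92 in the first, where naive mouse 1 was the highest and the value without it was 0.16. The second libraries called 2 genes lower, Gm10800, which was not tested in the first run (log2 fold change -1.37, adjusted p = 0.0417), and Pdzd2. Pdzd2, a protein with PDZ domains, had a lower level there (log2 fold change -0.53, adjusted p = 0.0206) and had -0.49 in the first (adjusted p = 0.174), where all 4 1 h mice lay below all 4 naive mice (35.8 to 48.2 against 49.6 to 74.1 CPM). These genes were named after their values were seen.

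Finally, the 1 h response was set beside that of mice with earlier cocaine, each against its own 0 h group, in a fit over the 48 first-run DS libraries. The repeated group had received cocaine on previous days, and the challenge group received it again after abstinence. The difference between responses was called for no gene of 12918 against repeated cocaine (0%) and for none against challenge (0%), with edgeR's quasi-likelihood test of the interaction at an adjusted p under 0.05. At an unadjusted p under 0.05 there were 649 and 676 genes, and DESeq2 called 1 gene, Arl5b, and 0 genes. Acute libraries came from another run than the first-run repeated and challenge libraries, so run and experience cannot be told apart in the levels, though each response is taken within a run. Over the run that holds all 3 experiences, with 2 mice per group, no gene was called either (459 and 509 at an unadjusted p under 0.05).

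The named differences are given with their values. Arl5b had a log2 fold change of 2.03 after the first dose and 0.57 after repeated cocaine (difference 1.46, SE 0.29, adjusted p = 0.0777). Celf3, an RNA-binding protein, had 0.59 and -0.024 (difference 0.61, SE 0.14, adjusted p = 0.251), and Efna1, an ephrin ligand, 0.94 and -1.51 (difference 2.45, SE 0.53, adjusted p = 0.123). In the other direction stood Igfbp2 (difference -3.03, SE 0.74, adjusted p = 0.29), Gpc4 (difference -4.62, SE 1.13, adjusted p = 0.29) and Ogn (difference -3.08, SE 0.81, adjusted p = 0.367). These 3 rested on naive mouse 1, without which the differences were -0.58, -1.55 and -1.09. Against challenge, the smallest adjusted p-values among larger responses were those of Nbn (difference 0.96, SE 0.23, adjusted p = 0.251), Hsd17b12 (difference 0.92, SE 0.23, adjusted p = 0.301) and Ap2b1 (difference 0.79, SE 0.20, adjusted p = 0.301). Among the opposite were 1500015O10Rik (difference -4.76, SE 1.06, adjusted p = 0.251), Yap1 (difference -0.99, SE 0.23, adjusted p = 0.251) and C3 (difference -4.47, SE 1.05, adjusted p = 0.251). Without naive mouse 1 the difference was -0.41 for 1500015O10Rik, -0.92 for Yap1 and -1.40 for C3. Yap1 had -0.78 after the first dose, -0.12 after repeated cocaine and 0.21 after challenge. Of the IEGs, Egr4 had 2.46 after the first dose, 2.01 after repeated cocaine and 1.97 after challenge. Egr1 had 1.46, 0.99 and 0.87, Egr3 had 0.79, 0.22 and 0.20, and Fosl2 had 2.60, 1.86 and 1.99. Egr2 had 3.36, 2.91 and 2.14, Fos had 2.11, 3.06 and 2.25, Arc had 2.16, 2.37 and 1.67, and Nr4a1 had 2.29, 2.53 and 1.67. Without naive mouse 1 the difference of Fos was -0.35 from repeated cocaine and 0.47 from challenge, in place of -0.95 and -0.14, and that of Egr2 was 0.16 and 0.93 in place of 0.45 and 1.21. None of these differences passed the threshold.

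Over the 76 higher genes the log2 fold change was larger after the first dose than after repeated cocaine in 65 (medians 0.97 and 0.54), against 50.9% of all 12918 genes tested. It was larger than after challenge in 70 (medians 0.97 and 0.63), against 49.1% of all genes tested. At an unadjusted p under 0.05, 26 of the 76 were larger and 1 smaller than after repeated cocaine, and 22 were larger and 0 smaller than after challenge. The 76 were chosen for their first-dose response in these same libraries, which by itself favours larger first-dose values, so the counts are a description. The 23 genes chosen from mice 1 and 2 could be read in the run that holds all 3 experiences, where the acute libraries come from mice 3 and 4. There 16 of the 23 were larger after the first dose than after repeated cocaine (medians 1.45 and 1.24) and 23 were larger than after challenge (medians 1.45 and 0.97), against 50.9% and 50.8% of the 12297 genes tested in that run. Over all 76 genes the medians in that run lay closer together, with 50 genes larger than after repeated cocaine (medians 0.82 and 0.71) and 56 larger than after challenge (medians 0.82 and 0.65). Both counts share the 2 naive and 2 1 h acute libraries of that run.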

How the data were processed

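The members and gene lists were chosen with earlier results of these data known. The deposited values are counts per gene symbol (19363 genes, 194 libraries). Per the labels and the study's methods the authors made 3' RNA libraries with unique molecular identifiers, aligned reads with STAR to GRCm38 and counted them with HTSeq after removal of PCR duplicates. The authors removed the shallowest libraries and down-sampled the deepest, so totals do not give the depth sequenced. The versions and the annotation are not given in the sources used here.

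The 4 naive and 4 1 h libraries of the first run were taken from these counts. Genes were filtered with filterByExpr, scaled by TMM and tested with edgeR 4.0.16 (quasi-likelihood F test, R 4.3.3) over 16 acute DS libraries, with Benjamini-Hochberg adjustment over all 12186 genes tested and a fold over 1.2. SE is the log2 fold change divided by the square root of F. DESeq2 1.42.0 was an alternative. The interaction was tested over 48 libraries. Tests were checked on counts simulated from the fitted spread, with no outlying mouse and with large planted differences for the interaction. That check does not bear on naive mouse 1 or on smaller differences in response. The labels number mice within groups, and p-values rest on 4 mice per group. Counting error limits scarce genes, the shallowest library holding 1441582 counts. Named genes were the 15 largest increases and up to 10 decreases (mean of at least 10 counts), up to 4 called members of each list by adjusted p, Arc, Egr2, Fos, Nr4a1, Drd1, Drd2, Penk, Tac1 and Pdyn, and for interactions the 3 smallest adjusted p-values in each direction. The alternatives varied the scaling, tool, filter, libraries, spread, pairing, fold, depth and mice. Libraries of other structures, and those at 2 h and 4 h other than for the shared spread, were not used here.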

Additional observations from a re-analysis of the deposited data

Results flagged for a closer look

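Of 72 groups of 4 mice examined (36 genes named by the rule, naive and 1 h), 5 held a mouse whose gap to its nearest neighbour, divided by the range of the group, exceeded Dixon's 95% critical value for 4 values. Chance alone flags about 1 group in 20. In the naive group mouse 1 was the highest for 1500015O10Rik (ratio 0.982), Fmod (0.941) and Igfbp2 (0.940), which are 3 of the 5 genes called lower. At 1 h mouse 1 was the lowest for Tiparp (0.847), with 59.5, 73.1, 74.7 and 75.6 CPM in mice 1 to 4, and mouse 4 was the highest for Junb (0.834), with 833, 880.3, 845 and 1118 CPM. Both genes were called higher without naive mouse 1 as well, with log2 fold changes of 2.06 and 2.12.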

How the results depend on the processing

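The number of higher genes lay between 58 and 106 under the alternatives run, against 76, except with glmTreat (50) and from mice 1 and 2 alone (23), and the number of lower genes moved more. Without each mouse in turn 58 to 87 genes were higher (58 without 1 h mouse 1, 87 without naive mouse 4) and 1 to 52 lower: 2 without naive mouse 1, 10 without naive mouse 2, 40 without naive mouse 3, 52 without naive mouse 4 and 1, Yap1, without any one of the 1 h mice. With mice 3 and 4 left out of both groups, and the other time points kept for the spread, 71 genes were higher and 168 lower, whereas the fit on the 4 libraries of mice 1 and 2 alone gave 23 and 2. Without a filter 106 genes were higher and 52 lower. Only the 8 libraries gave 1 lower gene, the robust spread 3, glmTreat against a fold of 1.2 3 (and 50 higher), summed first and second libraries 3 and thinned counts 8. The causes of these shifts were not tested.

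DESeq2 gave 89 higher, 74 of them among the 76, and 5 lower, of which Amotl2, Fmod and Yap1 were shared. The others were Cachd1 and Irgm2, which were also called lower with the robust spread. Their groups did not overlap, and naive mouse 1 was the highest mouse for both. Without it their log2 fold changes were -0.55 and -0.82 with edgeR, and neither was called. Yap1 was called lower under 20 alternatives but not from mice 1 and 2 alone (log2 fold change -0.89, adjusted p = 0.126). Of 715 values of the named genes 651 kept their direction and side of the threshold, 44 kept the direction and lost the call (in 1500015O10Rik, Fmod, Igfbp2, Amotl2 and Btg2) and 20 changed sign. These values leave out the fit on mice 1 and 2 alone, in which those genes, Yap1, Fos, Rnd3, Sik1, Kdm6b, Nab2, Dusp1, Dusp6, Gadd45b, Bhlhe40 and Dnajb1 kept their direction and lost the call, Fos at a log2 fold change of 1.12 and Btg2 at 0.42. The sign changes were all in genes that were not called. Drd1 turned to 0.0063 without a filter, 0.0033 with CPM of at least 1 in at least 4 libraries, 0.00014 with the replicate block, 0.013 with summed libraries, 0.061 with thinned counts, 0.13 with mice 3 and 4 left out and between -0.076 and 0.051 without single mice. Drd2 turned to -0.0018 with RLE scaling, -0.00054 with the 8 libraries and between -0.072 and 0.034 without single mice, and Pdyn lay between -0.13 and 0.034 without single mice.

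The replicate numbers did not pair the mice: same-numbered deviations from the group means correlated at 0.092, 0.028, 0.023 and -0.099. With the replicate block in the 8-library fit 82 genes were higher and 3 lower, against 74 and 1 without it.

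Of the lower genes 33.3% (1 of 3) kept their direction in the second libraries, and 100% (2 of 2) did when called from mice 1 and 2 only or without naive mouse 1. The 2 called from mice 1 and 2, Cck and Gfap, had second-library log2 fold changes of -0.064 and -0.012, with both 1 h mice below both naive mice in 0 of 2. Leaving out single second libraries gave 98.7 to 100% for the higher genes and 33.3% for the lower. That check, DESeq2 for the interactions, the choice without naive mouse 1, the named differences without that mouse and the size of the response in the run with all experiences were added after seeing the data. Without single acute mice the difference from repeated cocaine was called for 0 to 16 genes and that from challenge for 0 to 15, the calls appearing without naive mouse 3 (5 and 7) or naive mouse 4 (16 and 15). DESeq2 gave 1 and 0.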

Other observations

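The genes that stood out in naive mouse 1 included structural and secreted proteins that the comparison did not call. Vim, an intermediate filament, counted 430.3, 29.3, 24.4 and 14.99 CPM in naive mice 1 to 4 and 14.3 to 26.6 CPM at 1 h. Complement component C3 counted 160.2, 6.29, 4.37 and 5.45 CPM against 4.96 to 9.24 CPM, and Nes, nestin, 98.2, 9.08, 7.81 and 5.45 CPM against 6.19 to 9.38 CPM. The growth factor binding protein genes Igfbp3 and Igfbp5 counted 104, 4.19, 4.37 and 5.72 CPM and 308, 92.9, 55.3 and 61.03 CPM in the naive mice. The matricellular genes Ctgf and Cyr61, known targets of YAP, counted 35.9, 3.49, 3.12 and 2.72 CPM and 40.99, 3.49, 2.19 and 0.817 CPM there. Gfap, a filament of reactive astrocytes, counted 87.7, 41.2, 17.5 and 21.5 CPM, while the summed level of 11 astrocyte markers was 3973 CPM in naive mouse 1 and 4308 to 4528 CPM in the others. The part of these genes in the decreases was not tested, other than by leaving the mouse out.

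Over the 76 higher genes the 1 h mice were not alike in size. Mouse 4 held the highest 1 h level in 37 of the genes and mouse 2 the lowest in 39, whereas mouse 1 was highest in 22 and lowest in 12. Among the naive mice, each was highest in 13 to 23 of the genes, and mouse 1 was lowest in 31, mouse 2 in 21, mouse 3 in 6 and mouse 4 in 18.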
